A study of Mus musculus with 4 samples.

Results

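Leptin (*Lep*) and 9 further genes of the dermal fat cell were followed in imiquimod-treated dorsal skin of mice on the NASH diet, rich in fat, cholesterol and sucrose and supplemented with bile salt, with or without the oxysterol 7-ketocholesterol (7KC). The members were named by gene symbol (*Lep*, *Adipoq*, *Retn*, *Cfd*, *Plin1*, *Fabp4*, *Pparg*, *Lpl*, *Adrb3* and *Ucp1*), and all 10 were found among the 24346 symbols of the files. Male C57BL/6 mice, 8 weeks old at the start, received the NASH diet for 3 weeks and then imiquimod (IMQ) cream on the dorsal skin for 1 day (Cont-IMQ group, 2 libraries, replicates 1 and 2). The 7KC-IMQ group (2 libraries, replicates 1 and 2) differed, by its labels, only in the addition of 7KC to the diet. IMQ activates a Toll-like receptor and induces psoriasis-like dermatitis. All 4 libraries came from IMQ-treated skin of mice on the NASH diet, so neither untreated skin nor a standard diet is part of the comparison. Neither the labels nor the methods state whether a library came from 1 mouse or from pooled mice, and p-values therefore measure only the spread between these libraries.

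The skin of the mouse back holds a layer of fat cells between the dermis and a thin sheet of muscle. These dermal adipocytes store triglyceride in a single large droplet, secrete hormones such as leptin and adiponectin, and form a layer that thickens while the hair follicles grow. Leptin is released in proportion to the fat stored in a cell and signals through its receptor to the JAK2 kinase and STAT3, in the brain as well as in leukocytes and keratinocytes. PPARγ, the product of *Pparg*, is the nuclear receptor that drives the fat cell programme and activates many of the other genes described here.

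Expression was measured as FPKM, a read count scaled to the gene's exon length and to the mapped reads of the library, so levels can be compared between genes. Pairs of values are given throughout as replicate 1 and then replicate 2 of the Cont-IMQ group (the control diet), followed by replicate 1 and then replicate 2 of the 7KC-IMQ group. Depth, estimated from the steps of the low values, lay between 14940000 and 16170000 mapped reads per library. Differences are given as log2(FPKM + 1) in the 7KC-IMQ group minus the Cont-IMQ group, a scale that compresses differences between low values. They were tested by limma in the 15896 genes whose mean over the libraries reached 0.1 FPKM. After Benjamini-Hochberg adjustment, 1 gene passed 0.05 (0.00629% of the genes tested), and it was neither a member nor in any list below. With 2 libraries in each group, the smallest two-sided p of an exact permutation test is 0.333. The 2 Cont-IMQ libraries stood apart from each other in the genes of the growing hair follicle. The summed FPKM of the 22 listed follicle genes was 155 in Cont-IMQ replicate 1 and 1743 in Cont-IMQ replicate 2, against 529 and 470 in 7KC-IMQ replicates 1 and 2. Results on the members are therefore also given without these libraries where their direction changed, and list medians where they moved most.

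*Lep* had the largest difference between the diets among the members, whereas most of the other members overlapped between the groups. The mean FPKM of *Lep* was 4.81 times as high in the 7KC-IMQ group. *Plin1* and *Pparg* were also higher in both 7KC-IMQ libraries, by much less, and *Adipoq*, *Retn*, *Cfd*, *Fabp4*, *Lpl* and *Adrb3* overlapped. *Ucp1*, the mark of heat-producing fat, was at the level of 1 read or at 0. Because the libraries are of whole skin, a difference in the number of fat cells and one in the RNA per fat cell cannot be told apart.
Of the 10 members, 9 passed the filter on low values, *Ucp1* being the exception. Of these 9, 3 were higher in the 7KC-IMQ group without overlap and 0 were lower, where 23.9% of all genes tested were higher and 22.9% lower in this way (46.8% in either direction). In mean, 8 of the 9 were higher, against 48.7% of all genes tested. The directions depended on single libraries. Without Cont-IMQ replicate 1, the log2 differences of *Adipoq*, *Retn*, *Cfd* and *Adrb3* turned to -0.11, -0.06, -0.17 and -0.20, and *Fabp4* stayed negative. Without Cont-IMQ replicate 2, *Fabp4* turned to 0.18. At an unadjusted p under 0.05 in limma, 2 of the 9 were higher (*Lep* and *Plin1*), against 7.50% of all genes tested, and 0 were lower, against 5.47%. This count was 0 without Cont-IMQ replicate 1, 4 without Cont-IMQ replicate 2 and 1 without 7KC-IMQ replicate 1. None passed the adjusted threshold, and their lowest adjusted p was 0.356 in limma. With the libraries rescaled to the same FPKM sum, the split over all genes tested at an unadjusted p under 0.05 changed from 1192 higher and 869 lower to 638 higher (4.01%) and 1230 lower (7.73%), and 1 member, *Lep*, was then higher.

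**Figure D1:**
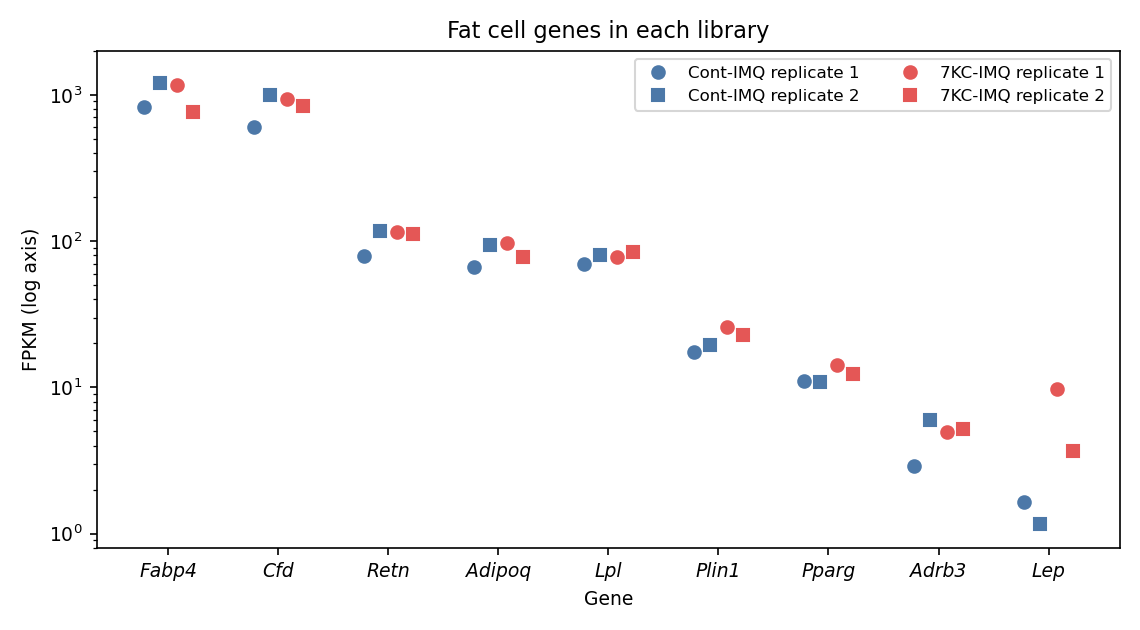
FPKM (log axis) of the 9 fat cell genes above the filter in each of the 4 libraries, with Cont-IMQ in blue, 7KC-IMQ in red, circles for replicate 1 and squares for replicate 2. The points of *Lep* separate by diet, from 1.16 and 1.64 to 3.70 and 9.75 FPKM, while those of *Adipoq*, *Retn*, *Cfd*, *Fabp4*, *Lpl* and *Adrb3* intermingle.

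*Lep* (ENSMUSG00000059201.12, chromosome 6 from 29060220 to 29073877 of GRCm38, plus strand) encodes the satiety hormone leptin. It had 1.64 FPKM in Cont-IMQ replicate 1 and 1.16 FPKM in Cont-IMQ replicate 2. In the 7KC-IMQ group it had 9.75 FPKM in replicate 1 and 3.70 FPKM in replicate 2. Both 7KC-IMQ libraries thus lay above both Cont-IMQ libraries, and the lower of them was 2.27 times the higher Cont-IMQ library. The group means were 1.40 ± 0.337 and 6.73 ± 4.27 FPKM (SD, n = 2). The log2 difference was 1.58 (standard error 0.42, 95% confidence interval 0.48 to 2.67, unadjusted p = 0.0149 and adjusted p = 0.356 in limma). Ordered from the most positive difference down, it stood at rank 34 of 15896.
The spread within the 7KC-IMQ group was wide, with replicate 1 at 2.63 times replicate 2, whereas the Cont-IMQ libraries differed by 1.41 times. For a transcript of 3259 bases, the longer of the 2 annotated, the values correspond to about 76 and 53 reads in the Cont-IMQ libraries and 482 and 169 reads in the 7KC-IMQ libraries. With the shorter transcript of 420 bases they would be 5, 4, 35 and 12 reads. For the longer one, the exact 95% Poisson intervals are 60 to 95, 40 to 69, 440 to 527 and 144 to 196 reads, and they cover counting error only. On that length, the intervals of the 7KC-IMQ libraries do not meet, so the distance between them is larger than counting error. Without 7KC-IMQ replicate 1, the remaining 7KC-IMQ library was 2.65 times the Cont-IMQ mean, and the log2 difference was 0.98. Without 7KC-IMQ replicate 2 it was 2.17, without Cont-IMQ replicate 1 it was 1.72 and without Cont-IMQ replicate 2 it was 1.43. Leaving out either Cont-IMQ library took the unadjusted p above 0.05, to 0.0559 and 0.0864 in limma.

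The 300-base windows around the start sites of *Lep*, *Plin1* and *Adipoq* are shown as those of the member with the largest difference, of another that did not overlap and of one that overlapped between the groups. They run from 250 bases before to 50 bases after the start site and come from RefSeq on GRCm38.p6. For *Lep* the window is chr6:29059971-29060270 on the plus strand, for *Plin1* chr7:79732727-79733026 on the minus strand and for *Adipoq* chr16:23146286-23146585 on the plus strand. Capitals mark matches on either strand to 4 motifs, which are TTGCNNAA (bound by C/EBP factors), TATAAA (the TATA box), GGGCGG (the GC box) and AGGTCA (a nuclear receptor half-site). No matches overlap in these windows.
Lep: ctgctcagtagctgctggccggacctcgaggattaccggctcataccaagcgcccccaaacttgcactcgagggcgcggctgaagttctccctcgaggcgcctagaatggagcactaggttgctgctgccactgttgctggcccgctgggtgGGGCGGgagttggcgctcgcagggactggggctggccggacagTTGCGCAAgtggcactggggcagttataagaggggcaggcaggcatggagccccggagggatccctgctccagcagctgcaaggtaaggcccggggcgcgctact
Plin1: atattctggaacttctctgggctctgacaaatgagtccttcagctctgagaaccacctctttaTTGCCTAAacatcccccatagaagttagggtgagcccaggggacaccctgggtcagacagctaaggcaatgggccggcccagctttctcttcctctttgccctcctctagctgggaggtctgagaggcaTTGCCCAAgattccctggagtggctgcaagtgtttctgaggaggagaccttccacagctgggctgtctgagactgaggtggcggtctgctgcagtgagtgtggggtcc
Adipoq: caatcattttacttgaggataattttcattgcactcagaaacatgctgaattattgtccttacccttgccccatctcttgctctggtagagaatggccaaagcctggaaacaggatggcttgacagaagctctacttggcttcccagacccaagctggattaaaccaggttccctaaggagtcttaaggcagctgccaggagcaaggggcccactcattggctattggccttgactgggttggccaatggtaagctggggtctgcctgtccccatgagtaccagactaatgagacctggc
*Lep* holds a C/EBP match whose first base lies at -55 and a GC box at -98 from the start site. *Plin1* holds 2 C/EBP matches, at -187 and -58 from the RefSeq start site. In GENCODE the gene starts further upstream, at 79732903, so the match at -58 lies inside the gene as annotated there. *Adipoq* holds none of these letters. Among 32817 RefSeq promoter windows of the same length, 10.8% hold the C/EBP letters, 35.6% the GC box, 13.6% the TATA letters and 16.3% the half-site. Windows were found for 7 of the 10 members, with *Pparg* having 3. Of these 9 windows, 3 held the C/EBP letters, 3 the GC box, 3 the half-site and 1 the TATA letters. *Fabp4*, *Lpl* and *Adrb3* had no entry. A match is a description of the letters and not of binding.

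*Adipoq*, *Retn* and *Cfd*, members that encode other secreted products of the fat cell, overlapped between the groups. *Adipoq* (chromosome 16, 23146536 to 23158028) encodes adiponectin, a hormone made almost only by fat cells. It had 66.8 and 94.1 FPKM with the control diet against 97.3 and 77.9 FPKM with 7KC. The Cont-IMQ libraries enclosed 1 of the 7KC-IMQ libraries, and the log2 difference was 0.13 (95% confidence interval -0.40 to 0.67, adjusted p = 0.812 in limma).
*Retn* (chromosome 8, 3655770 to 3660110) encodes resistin, which in the mouse is a fat cell hormone. It had 78.9 and 118 FPKM with the control diet against 116 and 111 FPKM with 7KC, a log2 difference of 0.23 (interval -0.30 to 0.77, adjusted p = 0.661 in limma). *Cfd* (chromosome 10, 79890853 to 79892655) encodes adipsin, the complement factor D that fat cells release. It had 603 and 992 FPKM with the control diet against 931 and 839 FPKM with 7KC, a log2 difference of 0.19 (interval -0.49 to 0.87, adjusted p = 0.786 in limma).
In all 3 genes the lowest library was Cont-IMQ replicate 1, which was also the library with the lowest follicle genes. Without it, the log2 differences of *Adipoq*, *Retn* and *Cfd* were -0.11, -0.06 and -0.17, so their direction changed. Without Cont-IMQ replicate 2 they were 0.38, 0.52 and 0.55. That of *Adipoq* also turned without 7KC-IMQ replicate 1, to -0.02. The part of the follicle cycle in these values was not tested. The intervals leave room for differences in either direction, so these data do not show that the hormones were at equal levels.

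Of the proteins that handle stored fat, *Plin1* was higher in both 7KC-IMQ libraries. *Plin1* (chromosome 7, 79720218 to 79732903, minus strand) encodes perilipin-1, the coat of the fat droplet that guards it against lipases. It had 17.4 and 19.5 FPKM with the control diet against 26.0 and 22.7 FPKM with 7KC. The groups did not overlap, and the means were 18.5 ± 1.5 and 24.4 ± 2.34 FPKM (SD, n = 2), a ratio of 1.32. The log2 difference was 0.38 (standard error 0.11, interval 0.10 to 0.67, unadjusted p = 0.0194 and adjusted p = 0.356 in limma). It lay between 0.29 and 0.47 with each library left out in turn, and at 0.30 (unadjusted p = 0.0767 in limma) with the libraries rescaled to the same FPKM sum.
*Fabp4* (chromosome 3, 10204088 to 10208576, minus strand) encodes a fatty acid carrier of fat cells that is also present in endothelium and macrophages. It had the highest mean FPKM of the members, with 831 and 1200 FPKM with the control diet against 1158 and 762 FPKM with 7KC. It was lowest in 7KC-IMQ replicate 2, and its log2 difference was -0.09 (interval -0.82 to 0.65, adjusted p = 0.921 in limma). The sign was positive without Cont-IMQ replicate 2 (0.18) and without 7KC-IMQ replicate 2 (0.21).
*Lpl* (chromosome 8, 68880491 to 68907448) encodes lipoprotein lipase, which frees fatty acids from circulating lipoproteins at the vessel wall. It had 69.8 and 79.9 FPKM with the control diet against 78.4 and 84.2 FPKM with 7KC. The groups overlapped, and the log2 difference was 0.12 (interval -0.14 to 0.38, adjusted p = 0.638 in limma), the narrowest interval among the members.

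*Pparg* (chromosome 6, 115360951 to 115490399) had 11.1 and 10.9 FPKM with the control diet against 14.3 and 12.4 FPKM with 7KC. The groups did not overlap, with a log2 difference of 0.25 (interval -0.02 to 0.53, unadjusted p = 0.0637 and adjusted p = 0.410 in limma). Its FPKM pools transcripts from several start sites, since one value was deposited per symbol, and the fat cell form cannot be read apart from the form of other cells. *Gm44079* overlaps it on the other strand, and since the counting is not stated to use strand, their reads may be mixed.

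Of the genes of adrenergic control and heat production, *Adrb3* overlapped and *Ucp1* was not detectable beyond a single read. *Adrb3* (chromosome 8, 27225776 to 27250616, minus strand) encodes the beta-3 adrenergic receptor, through which nerves start fat breakdown in rodent fat cells. It had 2.90 and 5.94 FPKM with the control diet against 4.96 and 5.16 FPKM with 7KC. The Cont-IMQ libraries enclosed both 7KC-IMQ libraries, and the log2 difference was 0.22 (interval -0.55 to 0.98, adjusted p = 0.785 in limma), and was -0.20 without Cont-IMQ replicate 1 and 0.63 without Cont-IMQ replicate 2. *Gm45470* overlaps *Adrb3* on the other strand, so part of these reads may belong to it.
*Ucp1* (chromosome 8, 83290352 to 83298452) encodes the mitochondrial uncoupling protein of brown and beige fat. It was listed at 0.0452 and 0.0457 FPKM in Cont-IMQ replicates 1 and 2, each the worth of 1 read, and at 0 in both 7KC-IMQ libraries. The floor of 3 reads corresponds to 0.13 to 0.14 FPKM, so all 4 libraries lay under it and no fold is given. A listed 0 can also be a failed estimate.

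**Figure D2:**
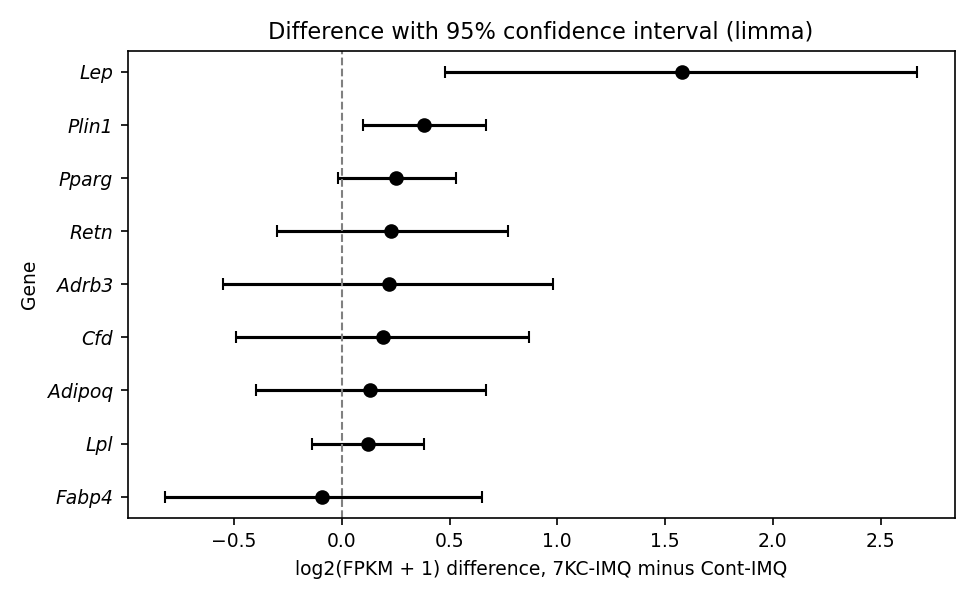
Difference in log2(FPKM + 1), 7KC-IMQ minus Cont-IMQ, for each of the 9 fat cell genes above the filter, with the 95% confidence interval from limma as bars (2 libraries per group). The intervals of *Lep* (0.48 to 2.67) and *Plin1* (0.10 to 0.67) lie above 0, and those of the other 7 include 0.

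In order of the mean level over the libraries, *Fabp4* and *Cfd* stood highest, *Retn*, *Adipoq* and *Lpl* followed between 66.8 and 118 FPKM, and *Plin1*, *Pparg*, *Adrb3* and *Lep* came below. The ranges of *Fabp4* and *Cfd* overlapped over the libraries, as did those of *Retn*, *Adipoq* and *Lpl*. *Lep* stood below *Adrb3* in both Cont-IMQ libraries and in 7KC-IMQ replicate 2, but above it in 7KC-IMQ replicate 1. Of the 8 members tested other than *Lep*, 6 had their lowest value in Cont-IMQ replicate 1, and their mean log2(FPKM + 1) relative to the Cont-IMQ mean was -0.22, 0.22, 0.27 and 0.09 in Cont-IMQ replicates 1 and 2 and 7KC-IMQ replicates 1 and 2. In this mean, Cont-IMQ replicate 2 thus lay between the 7KC-IMQ libraries, but it had the lowest *Lep* of all. Gene by gene its place varied. It lay above both 7KC-IMQ libraries in *Retn*, *Cfd*, *Fabp4* and *Adrb3*, between them in *Adipoq* and *Lpl*, and below both in *Plin1* and *Pparg*. The contrast of the mean with *Lep* rests on a single library, and its cause was not tested.
*Lep* was also set against other fat cell genes of the same library, which differ with the amount of fat in a piece of skin. Per 100 FPKM of *Adipoq*, *Lep* had 2.45 and 1.23 FPKM with the control diet against 10.02 and 4.75 FPKM with 7KC. Both 7KC-IMQ libraries stayed above both Cont-IMQ libraries. Relative to the mean log2(FPKM + 1) of *Adipoq*, *Plin1*, *Cfd* and *Fabp4*, *Lep* stood at -5.91 and -6.67 with the control diet against -4.43 and -5.31 with 7KC. The difference was 1.42 (SD within groups 0.58, two-sided exact permutation test, p = 0.333, the smallest that 2 against 2 allows). It was 0.98 without 7KC-IMQ replicate 1 and 1.04 without Cont-IMQ replicate 2.

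**Figure D3:**
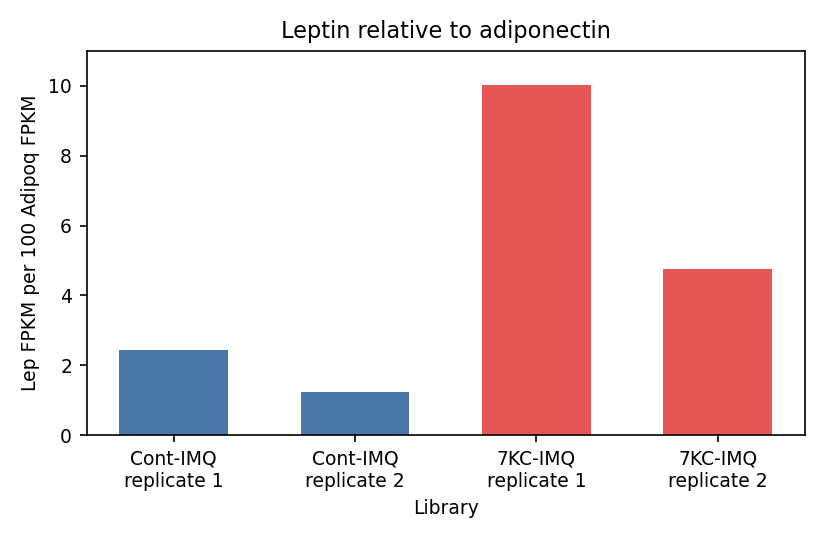
FPKM of *Lep* per 100 FPKM of *Adipoq* in each library, with 1 bar per library (Cont-IMQ in blue, 7KC-IMQ in red). The 7KC-IMQ bars reach 10.02 and 4.75, above the Cont-IMQ bars of 2.45 and 1.23.

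The wider genes of the fat cell, from lists compiled for their known roles, had smaller differences than *Lep* in all 9 fat cell lists. In the mature fat cell list, which covers droplet proteins, fat storage and insulin action, 37 genes were tested. Of these, 7 were higher and 9 lower without overlap, and 4 were higher and 3 lower at an unadjusted p under 0.05 in limma. Over all genes tested, 23.9% were higher and 22.9% lower without overlap, so the list's 16 of 37 lay near that background. The median log2 difference was -0.13 (-0.02 without Cont-IMQ replicate 2), against -0.0056 over all genes tested. None passed after adjustment, the lowest adjusted p in limma being 0.356. The shares of 23.9% and 22.9% are also the background for the counts without overlap in every list below.
The listed enzymes that feed triglyceride assembly differed in direction. *Agpat2*, which makes phosphatidic acid, had 19.2 and 20.3 FPKM with the control diet against 25.1 and 31.5 FPKM with 7KC. *Gpd1*, which supplies glycerol phosphate, had 24.6 and 26.9 FPKM against 33.5 and 30.9 FPKM, and *Dgat1*, an enzyme of the last step, had 34.2 and 29.4 FPKM against 38.0 and 38.4 FPKM. These 3 were higher without overlap, whereas *Gpam*, an enzyme of the first step, had 20.5 and 18.3 FPKM against 15.8 and 18.3 FPKM, and *Lpin1* and *Dgat2* overlapped, with log2 differences of -0.20 and -0.10.
Genes of insulin action were partly lower and partly overlapping. *Insr*, the insulin receptor, had 7.11 and 7.65 FPKM with the control diet against 5.95 and 5.64 FPKM with 7KC. *Irs1*, the adaptor below it, had 4.35 and 3.73 FPKM against 3.22 and 2.49 FPKM, and *Slc2a4*, which encodes the glucose transporter GLUT4 of fat and muscle, had 24.9 and 24.1 FPKM against 17.7 and 23.7 FPKM. *Irs2*, a related adaptor, had 7.74 and 10.9 FPKM against 7.81 and 8.84 FPKM, and *Akt2*, a kinase further along, had a log2 difference of 0.03, and both overlapped. These genes are also expressed outside fat. *Cidec*, which fuses droplets in white fat cells, overlapped at 55.8 and 97.6 against 102 and 83.8 FPKM and, as with the hormones, was lowest in Cont-IMQ replicate 1.

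Of 20 transcription factors of fat cell formation tested, 5 were higher and 4 lower without overlap, close to the shares over all genes tested (23.9% and 22.9%), with a median log2 difference of 0.00. *Cebpb* and *Cebpd*, the early C/EBP factors that are also induced by inflammation, had 112 and 117 against 134 and 204 FPKM, and 58.2 and 82.5 against 89.9 and 104 FPKM. *Cebpa*, the late factor of the mature fat cell, had 143 and 136 against 134 and 146 FPKM and overlapped. *Ppard* had 33.0 and 35.1 against 40.5 and 49.5 FPKM (log2 difference 0.39, unadjusted p = 0.0256 and adjusted p = 0.363 in limma).
In the lipogenesis list, 3 of 15 genes were higher and 1 lower without overlap, with a median log2 difference of 0.09. *Fasn*, fatty acid synthase, had 30.5 and 29.2 against 33.6 and 35.5 FPKM. The sebaceous gland shares this pathway. The median was 0.23 without Cont-IMQ replicate 1 and -0.02 without Cont-IMQ replicate 2.

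In the lipolysis list, 5 of 20 genes were higher and 6 lower without overlap, against 23.9% and 22.9% of all genes tested. The list's median log2 difference was 0.06. *G0s2*, an inhibitor of the first lipase of fat breakdown, had 11.5 and 14.3 FPKM with the control diet against 19.6 and 16.9 FPKM with 7KC (log2 difference 0.47, unadjusted p = 0.0228 and adjusted p = 0.356 in limma). *Abhd5*, the activator of the same lipase, had 53.9 and 51.2 against 59.2 and 67.6 FPKM, and the lipase itself, *Pnpla2*, had 99.4 and 110 against 97.5 and 91.2 FPKM. The activator and the inhibitor were thus both higher without overlap, and the enzyme was lower.

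The receptor side of leptin was present in the skin. *Lepr*, the leptin receptor, had 4.14 and 6.44 FPKM with the control diet against 7.32 and 5.99 FPKM with 7KC, and the groups overlapped (log2 difference 0.30, 95% interval -0.27 to 0.87, unadjusted p = 0.224 in limma). Of the 10 genes tested in the leptin signalling list, 5 were higher and 0 lower without overlap, against 23.9% and 22.9% of all genes tested. The list's median log2 difference was 0.14. It was 0.07 both without Cont-IMQ replicate 1 and with the libraries rescaled to the same FPKM sum. *Stat3* had 81.9 and 68.5 against 98.1 and 103 FPKM, and *Jak2* had 14.4 and 14.1 against 17.3 and 15.7 FPKM. The others higher without overlap were *Leprotl1* and the phosphatase genes *Ptpn1* and *Ptpn2*. *Ptpn1* had 37.6 and 44.2 against 45.5 and 52.1 FPKM, and *Ptpn2* had 24.5 and 25.9 against 27.9 and 27.9 FPKM. *Socs3*, the feedback inhibitor that leptin and other cytokines induce, had 53.8 and 74.7 against 58.8 and 71.5 FPKM and overlapped. These relay genes serve many cytokines besides leptin.
Of the listed receptors of adiponectin, *Adipor1* and *Cdh13* were lower without overlap, with log2 differences of -0.12 and -0.20. *Adipor2* overlapped, with 70.1 and 60.8 against 62.2 and 62.4 FPKM. In the list of other adipokines and receptors, 6 of 24 genes were higher and 4 lower without overlap, with a median log2 difference of 0.03 (-0.02 without Cont-IMQ replicate 1, and -0.05 without either 7KC-IMQ library). *Retnla*, a relative of resistin made by several cell types, was higher in replicate 1 than in replicate 2 of both groups, with 83.6 and 32.0 FPKM with the control diet against 83.6 and 37.4 FPKM with 7KC.
Among the partners of lipoprotein lipase, 3 of 14 genes were higher and 2 lower without overlap, with a median log2 difference of 0.00. *Gpihbp1*, which holds the enzyme on the capillary wall, had 12.9 and 20.7 against 17.3 and 15.9 FPKM, and *Angptl4*, its inhibitor, had 34.3 and 50.4 against 51.3 and 36.8 FPKM. Both overlapped and both were lowest in Cont-IMQ replicate 1.

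More genes of the brown and beige fat list were lower than higher. Of 19 genes tested, 4 were higher and 9 lower without overlap, against 23.9% and 22.9% of all genes tested. The list's median log2 difference was -0.17 (-0.06 without Cont-IMQ replicate 2 and -0.27 without Cont-IMQ replicate 1). *Ppargc1a*, the co-activator of mitochondrial genes, had 0.910 and 1.16 FPKM with the control diet against 0.618 and 0.891 FPKM with 7KC. Its relative *Ppargc1b*, with 2.70 and 2.48 against 3.83 and 3.05 FPKM, and *Prdm16*, a factor that sets brown fat identity, with 0.566 and 0.601 against 0.764 and 0.799 FPKM, were higher without overlap. *Pdk4*, which spares glucose in favour of fat burning in muscle and fat, had 154 and 176 against 119 and 123 FPKM (log2 difference -0.45, unadjusted p = 0.00596 and adjusted p = 0.352 in limma), and *Cpt1b*, a muscle and brown fat enzyme, had 22.4 and 20.5 against 14.6 and 16.8 FPKM. Several of these genes, among them *Cox8b*, *Cox7a1*, *Cpt1b* and *Pdk4*, are also muscle genes. The listed muscle genes were abundant, with a summed FPKM of 11968 and 11032 in the Cont-IMQ libraries and 9833 and 11698 in the 7KC-IMQ libraries, and the part of muscle in the list's values was not tested.
The gene of this list with the largest positive difference was glycerol kinase (listed as *Gyk*), with 19.8 and 18.1 FPKM with the control diet against 35.1 and 48.5 FPKM with 7KC (log2 difference 1.09, unadjusted p = 0.00188 and adjusted p = 0.352 in limma). *Elovl3*, a brown fat gene that is also a defining gene of the sebaceous gland, had 128 and 110 against 174 and 175 FPKM. In the fat cell progenitor list, 4 of 19 genes were higher and 5 lower without overlap, with a median log2 difference of 0.01 (-0.13 without Cont-IMQ replicate 1). *Pdgfra*, a receptor of fat cell precursors and fibroblasts, had 13.0 and 16.2 against 17.7 and 19.0 FPKM, and *Dpp4*, a mark of early precursors, had 9.75 and 11.3 against 7.17 and 7.05 FPKM.

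Markers of other cell types of the skin were read beside the fat cell genes. In the endothelial list, all 14 genes were lower in mean in the 7KC-IMQ group, whereas 48.7% of all genes tested were higher. Of the 14, 10 were lower without overlap, against 22.9% of all genes tested, and the list's median log2 difference was -0.27. The summed FPKM of the 14 was 156 and 175 in the Cont-IMQ libraries and 143 and 134 in the 7KC-IMQ libraries. The median was -0.40 without Cont-IMQ replicate 1 and -0.17 without Cont-IMQ replicate 2. *Tek*, the receptor of angiopoietin, had 6.44 and 6.98 against 4.63 and 4.11 FPKM. Endothelium also holds *Fabp4* and *Pparg*, and its part in their values was not tested.
In the macrophage list, 1 of 15 genes was higher and 4 lower without overlap, with a median of -0.17 and a summed FPKM of 1059 and 1303 against 1005 and 1060. In the sebaceous gland list, 10 of 16 genes were higher and 5 lower without overlap, against 23.9% and 22.9% of all genes tested. The list's median was 0.24 and its summed FPKM 2162 and 1916 against 2468 and 2419. In the skeletal muscle list, 2 of 18 were higher and 4 lower without overlap (median 0.06). *Myh4* was higher, with 125 and 62.9 FPKM with the control diet against 427 and 329 FPKM with 7KC. Its log2 difference of 2.07 (unadjusted p = 0.00264 and adjusted p = 0.352 in limma) was larger than the 1.58 of *Lep*. *Myh1* was lower, with 695 and 753 against 322 and 568 FPKM. The part of muscle in these values was not tested. In the fibroblast list, 2 of 12 were higher and 3 lower (median 0.16, summed FPKM of 3676 and 2731 against 3468 and 3074), and in the keratinocyte list 3 of 13 were higher and 3 lower (median -0.08, summed FPKM from 18213 to 26480 in the Cont-IMQ group and from 20635 to 22743 in the 7KC-IMQ group). These medians turned with 1 library left out, to 0.01 for macrophages, -0.11 for fibroblasts and -0.06 for muscle without Cont-IMQ replicate 2, to -0.15 for muscle without 7KC-IMQ replicate 2 and to 0.12 for keratinocytes without Cont-IMQ replicate 1, whereas that of the sebaceous gland stayed between 0.17 and 0.25.
In the hair follicle list, none of the 22 genes separated the groups, and the median was -0.14. *Krt71*, a keratin of the inner root sheath, had 34.5 and 503 FPKM with the control diet against 135 and 112 FPKM with 7KC. Of the 8 members tested other than *Lep*, 6 were lowest in Cont-IMQ replicate 1, the library with the lowest follicle genes. *Lep* was lowest in Cont-IMQ replicate 2, the library with the highest. So was *Pparg*, by little (10.9 FPKM, against 11.1 FPKM in Cont-IMQ replicate 1), and *Fabp4* was lowest in 7KC-IMQ replicate 2. The part of the follicle cycle in *Lep* was not tested. The direction of the follicle list turned with the control library left out, from -1.76 without Cont-IMQ replicate 1 to 1.00 without Cont-IMQ replicate 2.

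**Figure D4:**
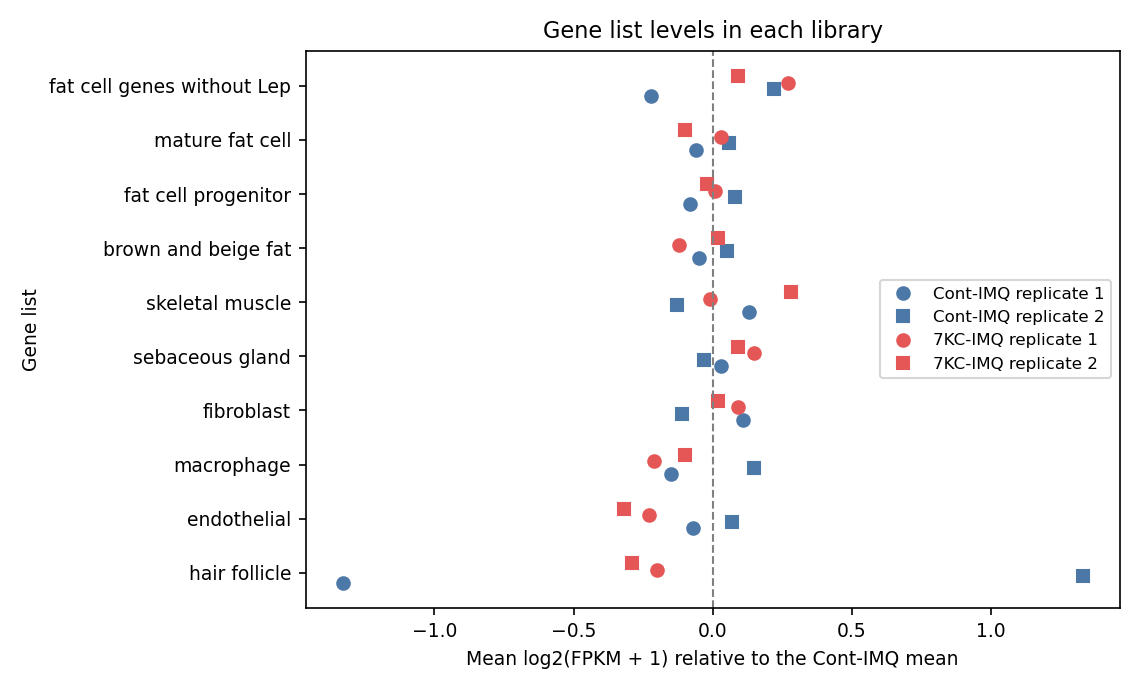
Mean log2(FPKM + 1) of 9 gene lists, and of the 8 tested members without *Lep*, in each library, relative to the mean of the 2 Cont-IMQ libraries (Cont-IMQ in blue, 7KC-IMQ in red, circles for replicate 1, squares for replicate 2). The Cont-IMQ libraries lie at -1.33 and 1.33 in the hair follicle list, and at -0.22 and 0.22 in the members without *Lep*.

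The genes whose pattern over the 4 libraries was most like that of *Lep* were sought among the 423 genes that reached 1 FPKM in mean and had at least 0.5 times its spread. The 5 with the highest Pearson correlation of log2(FPKM + 1) were *Mstn* (0.9907), *Slc26a4* (0.9775), *Csf2* (0.9633), *Rnf122* (0.9513) and *Ccl19* (0.9454). *Mstn*, which encodes myostatin, had 4.19 and 4.15 FPKM with the control diet against 11.4 and 7.25 FPKM with 7KC. *Csf2*, which encodes the growth factor GM-CSF, had 1.18 and 0.478 against 3.98 and 2.48 FPKM. For *Adipoq* they were *Cbx5*, *C1rl*, *Acta2*, *Ankrd39* and *Cdc7*, with correlations from 0.9977 to 0.9996 among 7119 genes. These correlations describe 4 points.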

How the data were processed

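RNA from dorsal skin on Day 1 of IMQ was measured in 4 libraries, made with a stranded mRNA kit. Single-end reads of 75 bases were mapped by the authors to mm10 with TopHat, Bowtie2 and SAMtools, and FPKM per gene symbol came from Cufflinks. The FPKM values were deposited as 1 file per library. The submitters' processing notes name TopHat2 2.1.1, Bowtie2 2.2.8, SAMtools 0.1.18 and Cuffdiff 2.2.1, and the paper names other releases. The annotation and the treatment of strand and of multiply mapped reads are not given in the sources used here. Counts are not part of the files, so no count model was used.

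limma 3.58.1 (R 4.3.3) was fitted to log2(FPKM + 1), moderated with its trend option, in genes that reached 0.1 FPKM in mean, and p-values were adjusted over all of them by the Benjamini-Hochberg method. The fit was tested on simulated data. Depth is the number of reads at which the low FPKM values of genes with a single GENCODE M21 transcript, less a fragment length of 200 bases, came within 0.1 of whole reads (74.0% to 78.5% of 311 to 315 genes, against a median of 12.1% to 13.5% over other depths). An FPKM of 3 reads or fewer was taken as the floor. Of the members, only *Lpl* shares 75-base windows with another annotated gene (0.20%), and *Pparg* and *Adrb3* overlap a gene on the other strand. Coordinates are of GRCm38, also called mm10, from GENCODE M21. Of 297 list symbols, 296 were found, 6 of them under an older symbol in RefSeq.

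Members and lists were chosen with earlier results of these data known. Genes named were the members, genes of 16 lists (mature fat cell, fat cell regulators, lipogenesis, lipolysis, leptin signalling, adipokines and receptors, LPL partners, brown and beige fat, fat cell progenitor, hair follicle, skeletal muscle, sebaceous gland, endothelial, macrophage, fibroblast, keratinocyte) and, for *Lep* and *Adipoq*, the 5 genes with the most similar pattern among those with at least the anchor's SD divided by 2. Alternatives were a filter at 1 FPKM, no filter, a pseudocount of 0.1, scaling by median ratio, equal sum or quantiles, an untrended variance, a replicate block, *Adipoq* alone as the reference of *Lep*, and each library left out.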

Additional observations from a re-analysis of the deposited data

How the results depend on the processing

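*Lep* stayed higher in the 7KC-IMQ group under all 12 alternatives, with a log2 difference between 0.98 and 2.17 and an adjusted p between 0.322 and 0.967 in limma, and so did *Plin1*, *Pparg* and *Lpl*. Of 108 values of the 9 members, 101 kept their direction and 7 changed it, all 7 with a library left out. Without Cont-IMQ replicate 1, *Adipoq* was at -0.11, *Retn* at -0.06, *Cfd* at -0.17 and *Adrb3* at -0.20. Without Cont-IMQ replicate 2, *Fabp4* was at 0.18, without 7KC-IMQ replicate 1 *Adipoq* was at -0.02, and without 7KC-IMQ replicate 2 *Fabp4* was at 0.21. Their ranges with each library left out were -0.11 to 0.38 for *Adipoq*, -0.06 to 0.52 for *Retn*, -0.17 to 0.55 for *Cfd*, -0.39 to 0.21 for *Fabp4* and -0.20 to 0.63 for *Adrb3*. The cause was not tested. With a library left out, the lone library of its group is assumed to vary like the other group. No member passed the adjusted threshold under any of them. The number of genes passing it over all genes tested was 1, but 2 with a pseudocount of 0.1 and between 1 and 9 with each library left out. The number of members with an unadjusted p under 0.05 was 2, but 1 with the same FPKM sum and between 0 and 4 with each library left out. *Lep* relative to the other fat cell genes was higher by 0.98 to 1.86 with each library left out, by 1.89 with a pseudocount of 0.1 and by 1.44 with *Adipoq* alone as the reference. The median of the mature fat cell list lay between -0.09 and -0.02 with each library left out. Replicates 1 and 2 occur in both groups, but no source ties equal numbers to a common origin. The deviations of same-numbered libraries from their group means correlated at 0.0651 over 15896 genes. A single correlation over all genes cannot show whether some genes follow a common origin, so a shared origin stays unknown. With the replicate block, *Lep* was at 1.58 (adjusted p = 0.400 in limma), 1 gene passed over all genes tested and 2 members had an unadjusted p under 0.05. Depth limits *Ucp1*, where a single read decides whether a library is listed at 0.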
